A study of Mus musculus with 36 samples.

Results

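Trim genes encode the tripartite motif proteins, a family built on a RING finger, B-box domains and a coiled coil. Most members are ubiquitin ligases, and many are induced by interferon and act in antiviral defense, in NF-kB signaling and in control of the inflammasome, the complex that processes interleukin-1 beta. The best known is primate TRIM5, which blocks incoming retroviruses. In the mouse, Trim30a restrains Toll-like receptor signaling by removing the adaptors TAB2 and TAB3 and also restrains the NLRP3 inflammasome, and its close relatives lie beside it on chromosome 7 with the mouse relatives of TRIM5. Members were the probe sets (groups of short probes that together read 1 transcript) whose platform annotation gives a single symbol made of Trim and a number. The rule took 111 of 45037 probe sets, which read 58 of 18193 genes. Another 5 probe sets list a Trim gene among several symbols and were not members.

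Left lungs of 36 male mice, 7 to 13 weeks old, were measured on Affymetrix mouse arrays, 1 mouse per array. Notch3-/- mice, Notch4-/- mice and wild-type (WT) mice each had 4 groups of 3 mice, namely air and 6, 24 and 48 hr of continuous whole-body exposure to 0.3 ppm ozone. The study asked which lung transcripts depend on the Notch3 and Notch4 receptors at rest and in ozone. By the study's methods, the knockout lines carried the Notch3tm1Grid and Notch4tm1Grid alleles on a mixed background and WT was a hybrid of strains of the same kind, all bought from a commercial breeder, so that the knockout lines may differ from WT in background as well as in the targeted gene. Line background and deletion cannot be told apart here, and the parental origin of each chromosome segment in each mouse was not measured. Each value is log2 relative to the median of its probe set over the 36 mice. Presence of a transcript, or of the markers of lung tissue, therefore cannot be read from the values. In lung homogenate, fewer cells of a type and less RNA per cell cannot be told apart.

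The targeted genes checked the labels. A Notch3 probe set lay between -4.51 and -3.13 in Notch3-/- mice and between -0.53 and 0.60 in WT mice. A Notch4 probe set lay between -4.31 and -1.40 in Notch4-/- mice and between -0.38 and 0.58 in WT mice, and its highest Notch4-/- values, -1.97 and -1.40, were those of air replicates 1 and 2. Another Notch4 probe set lay between -0.82 and -0.19 in Notch4-/- mice and between -0.14 and 0.58 in WT mice. A further one showed no loss, at -0.23 to 0.16 in Notch4-/- mice and -0.31 to 0.25 in WT mice. Besides Notch4-/- air replicates 1 and 2, the 3 Notch3-/- mice of the 6 hr ozone group and Notch3-/- air replicate 1 stood apart from the other mice of their line in several Trim genes of chromosome 7. For some, but not all, of the comparisons that hold these mice, counts of calls and leading differences are also given without them. Leaving them out was chosen after seeing the data.

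Differences were tested with limma over all 45037 probe sets and were called when the Benjamini-Hochberg adjusted p was below 0.05. Over the 23 comparisons, 33 of the 111 Trim probe sets, from 25 genes, were called at least once, 29.7% of the family against 22.4% of all probe sets. Over all 36 mice, 70 probe sets spanned less than 1 log2 unit, which was 63.1% of the family against 65.2% of all probe sets, and 10 spanned more than 2 units, 9.01% against 5.46%. The median span was 0.885 log2 units in the family and 0.836 over all probe sets. The widest were Trim12a with 5.71, Trim30d with 5.65 and Trim34a with 5.44 log2 units. The heat map of group means shows the called probe sets together.

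**Figure D1:**
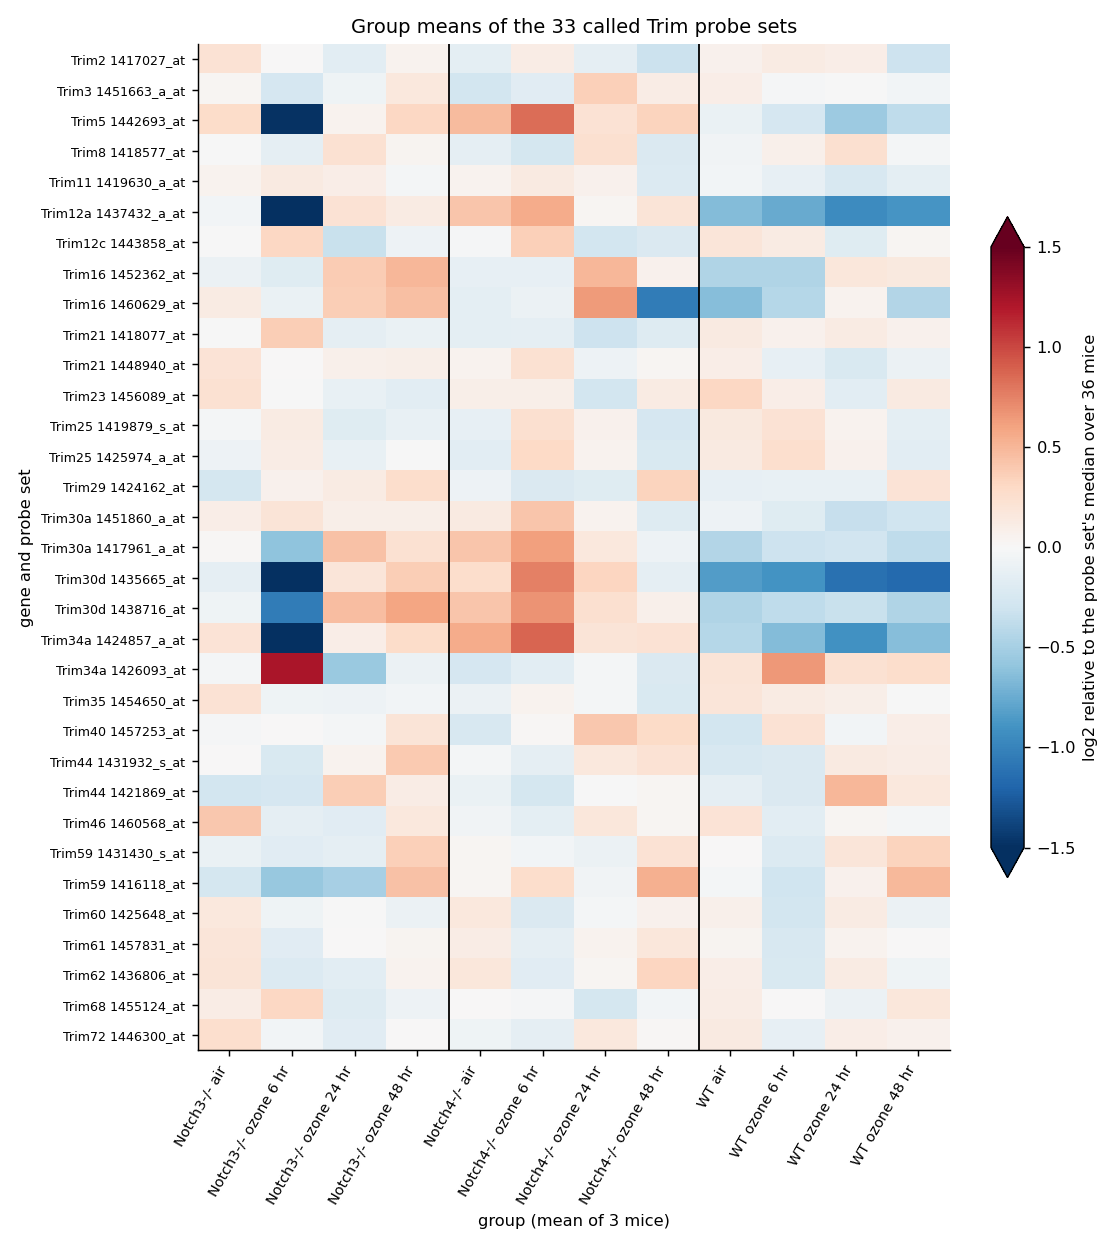
Mean log2 value of 3 mice, relative to the probe set's median over 36 mice, for the 33 called Trim probe sets (down the page) in the 12 groups (across), with colors saturating at 1.5 either way. The deepest blue cells are Trim5, Trim12a, Trim30d and Trim34a in Notch3-/- mice after 6 hr of ozone, and WT columns are blue for the same probe sets.

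The strongest values of the family were those of Trim12a, Trim30d and Trim34a in Notch3-/- mice after 6 hr of ozone. Trim12a, a mouse relative of primate TRIM5, was at -4.48, -5.03 and -4.67 in Notch3-/- mice after 6 hr of ozone and at -0.80, 0.22 and 0.47 in Notch3-/- mice in air. Trim30d, a close relative of Trim30a, was at -4.63, -4.76 and -4.76 in the ozone mice and at -0.78, 0.06 and 0.32 in the air mice. Trim34a, an interferon-induced gene whose human counterpart acts with TRIM5 against some lentiviruses, was at -4.07, -4.53 and -3.54 in the ozone mice and at -0.55, 0.54 and 0.64 in the air mice. All 3 ozone mice were far below all 3 air mice in each gene, and the groups did not overlap. By limma the difference was -4.69 (SE 0.22, adjusted p = 1.6e-14) for Trim12a, a 25.9-fold lower signal. It was -4.58 (SE 0.19, adjusted p = 7.9e-16) for Trim30d, 23.9-fold lower, and -4.26 (SE 0.23, adjusted p = 6.6e-13) for Trim34a, 19.1-fold lower.

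In this comparison 6 Trim probe sets were called, 1 higher and 5 lower, where 0.16% of all probe sets were called (0.0644% higher, 0.0955% lower). Trim5, the mouse gene named for the primate retroviral restriction factor, was at -1.51, -1.62 and -1.33 in Notch3-/- mice after 6 hr of ozone and at -0.58, 0.53 and 0.88 in Notch3-/- mice in air, a difference of -1.76 (SE 0.27, adjusted p = 0.0026). Without Notch3-/- air replicate 1 the difference was -2.19 (adjusted p = 1.2e-05), and without air replicate 3 it was -1.46 (adjusted p = 0.059). A second Trim30d probe set was lower by a smaller amount, -0.98 (SE 0.17, adjusted p = 0.011), and its call was lost without Notch3-/- air replicate 2, air replicate 3 or ozone 6 hr replicate 1, with adjusted p up to 0.077. A second Trim34a probe set went the other way, with 1.75, 0.32 and 1.58 in the ozone mice and 0.03, 0.11 and -0.25 in the air mice. Its difference was 1.25 (SE 0.24, adjusted p = 0.025), and the adjusted p rose to as much as 0.18 on leaving out any of 5 of the 6 mice.

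Both Trim30a probe sets missed the threshold. The one with the larger difference was at -0.37, -1.07 and -0.36 in Notch3-/- mice after 6 hr of ozone and at -0.39, 0.23 and 0.21 in Notch3-/- mice in air, and the groups overlapped. Its difference was -0.62 (SE 0.21, adjusted p = 0.25), or -0.82 (adjusted p = 0.21) without Notch3-/- air replicate 1, and that of the other was 0.09 (SE 0.14, adjusted p = 0.83). A second Trim12a probe set differed by -0.29 (SE 0.17, adjusted p = 0.49). Trim6, whose human counterpart makes free ubiquitin chains in interferon signaling, differed by -0.40 and 0.07 in its probe sets, and Trim12c, a further relative of TRIM5, by 0.31 and 0.19, with no call. Trim21, a cytosolic antibody receptor, differed by 0.37 and -0.21, and Trim68, a ubiquitin ligase, by 0.20, also with no call. Thus neighbors and even probe sets of the same gene gave different answers, and since these paralogs are close in sequence a probe set may also read its relatives.

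**Figure D2:**
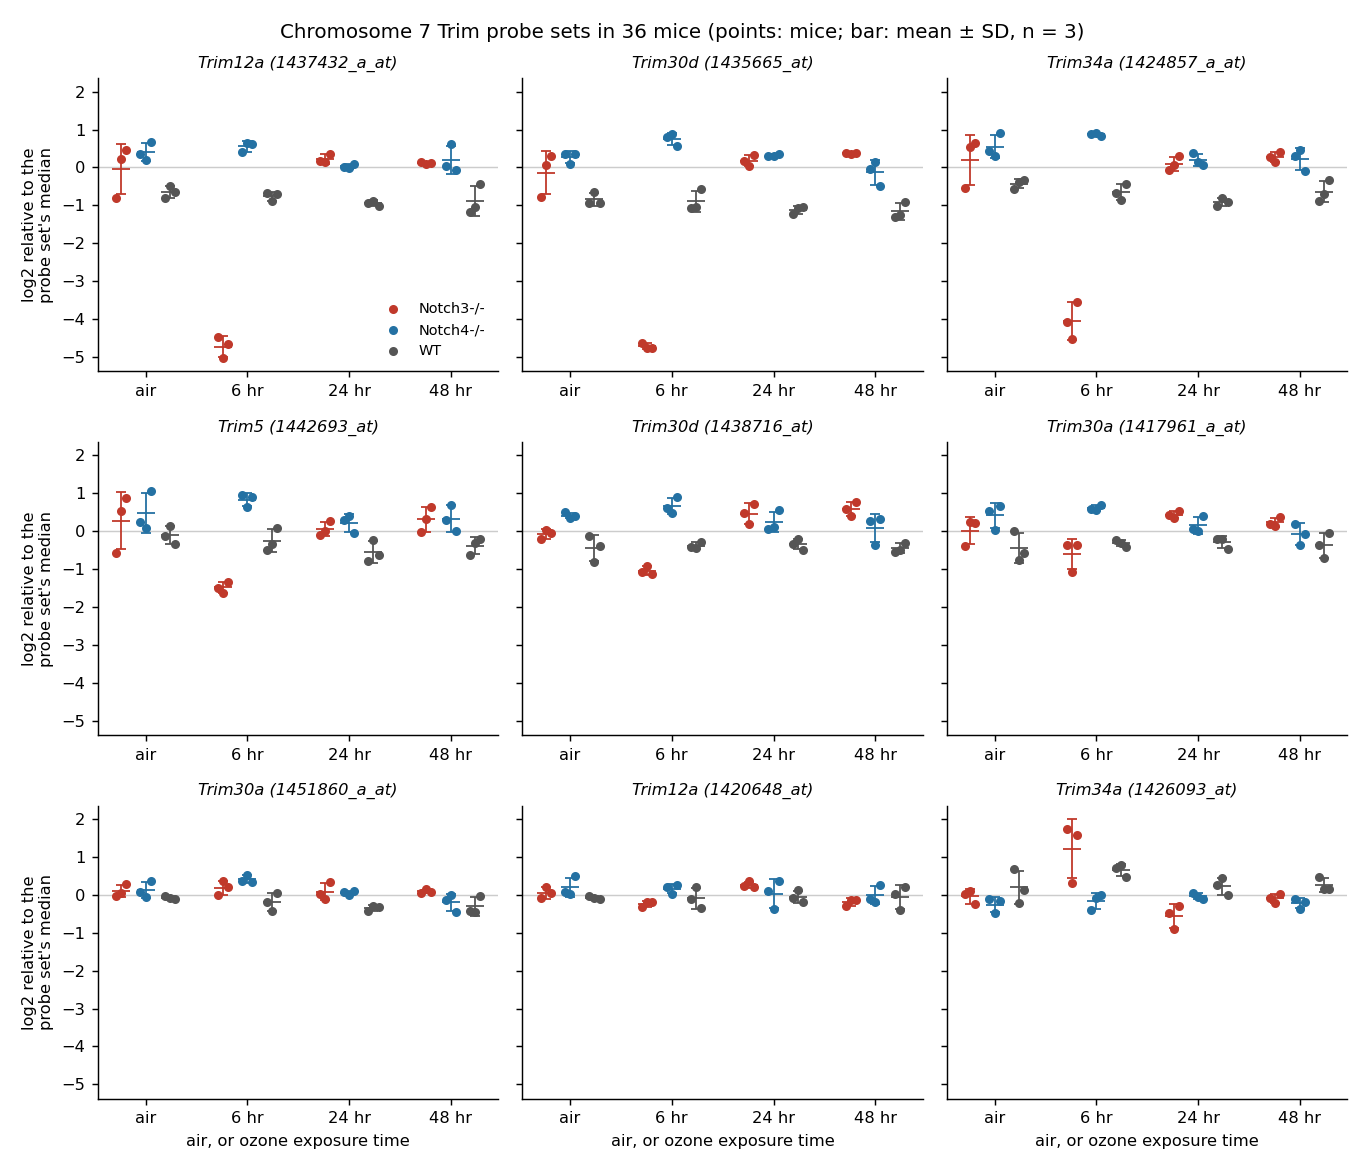
Log2 value relative to the probe set's median (vertical axis) in air and after 6, 24 and 48 hr of ozone (horizontal axis) for 9 probe sets of 5 chromosome 7 Trim genes, 1 point per mouse, with mean and SD of 3 mice. For Trim12a, Trim30d and Trim34a in the top row, the 3 Notch3-/- mice at 6 hr lie between -5.03 and -3.54, and all WT mice lie between -1.32 and -0.32.

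The low values were seen at 1 time point of 1 line. In Notch3-/- mice after 24 and 48 hr of ozone, Trim12a lay between 0.09 and 0.36, Trim30d between 0.05 and 0.38 and Trim34a between -0.08 and 0.41. After 6 hr of ozone, Trim12a was at 0.40, 0.64 and 0.63 in Notch4-/- mice and at -0.69, -0.90 and -0.70 in WT mice. Neither line passed the threshold at 6 hr, and the differences for Trim12a, Trim30d and Trim34a were 0.14, 0.48 and 0.32 in Notch4-/- mice and -0.11, -0.05 and -0.23 in WT mice. The ozone response of Notch3-/- mice at 6 hr differed from that of WT mice for these 3 probe sets, the members among the 0.00888% of all probe sets called in that comparison. The difference of the responses was -4.58 (SE 0.31, adjusted p = 2.3e-10) for Trim12a, -4.53 (SE 0.26, adjusted p = 9.4e-12) for Trim30d and -4.03 (SE 0.33, adjusted p = 1.4e-08) for Trim34a. For Trim5 it was -1.62 (SE 0.39, adjusted p = 0.57).

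Read over all 36 mice, these 3 probe sets fell into 3 separate levels. The lowest level held the 3 Notch3-/- mice of the 6 hr group. The 12 WT mice lay between, at -1.17 to -0.43 for Trim12a with a median of -0.84, at -1.32 to -0.57 for Trim30d with a median of -1.05, and at -1.02 to -0.32 for Trim34a with a median of -0.68. Notch3-/- air replicate 1, at -0.80, -0.78 and -0.55, was at the level of the WT mice. The other 8 Notch3-/- mice had medians of 0.16 for Trim12a, 0.32 for Trim30d and 0.29 for Trim34a, and the 12 Notch4-/- mice had medians of 0.28, 0.33 and 0.41. Of the mice outside the 6 hr Notch3-/- group and that 1 air mouse, every knockout mouse lay above every WT mouse in all 3 probe sets. The gap was narrow, above all in Trim30d, where the lowest Notch4-/- mouse was at -0.49 and the highest WT mouse at -0.57. The lowest Notch4-/- mouse was at -0.08 for Trim12a and -0.10 for Trim34a, and the highest WT mouse at -0.43 and -0.32. The mice left aside were chosen by their values in these same probe sets. The separation, and the differences without that air mouse, therefore follow in part from the choice. Without Notch3-/- air replicate 1 the 6 hr difference was -5.07 (adjusted p = 1.3e-16) for Trim12a, -4.90 (adjusted p = 8.2e-18) for Trim30d and -4.64 (adjusted p = 1.1e-14) for Trim34a, and 5 Trim probe sets were called, where 0.091% of all were.

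Several other genes of chromosome 7 were called in the same comparison. Of the 54 called probe sets with a chromosome in the RefSeq annotation, 14, or 25.9%, lay on chromosome 7, which holds 7.03% of the probe sets tested. Of these 14, 6 were Trim probe sets, and 13 lay in the stretch from Hddc3 to Trim30d. It spans 178 of the 1420 genes measured on the chromosome. The ends of the stretch were set by the called genes themselves, leaving aside Cacng6 at place 8 in the order. That it holds 13 of the 14 therefore follows from that choice. In gene order, Trim6, Trim34a, Trim5, Trim12a, Trim12c, Trim30a and Trim30d follow each other among the measured genes. Hddc3, which encodes a nucleotide hydrolase, was higher by 1.72 (SE 0.23, adjusted p = 0.00025). It lay between 1.71 and 2.02 in Notch3-/- mice after 6 hr of ozone, at 1.09 in Notch3-/- air replicate 1, between -0.59 and 0.02 in Notch3-/- mice at 24 and 48 hr, and between 0.97 and 1.33 in WT mice in air or at 6 hr. Kctd14, which encodes a protein with a tetramerization domain, differed by -1.15, with Notch3-/- air replicate 1 at -0.63 and WT mice in air or at 6 hr between -0.47 and -0.02. Mex3b, which encodes an RNA-binding protein, and Serpinh1, which encodes a collagen chaperone, differed by -1.18 and -1.01. For Mex3b, Notch3-/- air replicate 1 was at 0.43, within the range of its group (0.13 to 0.76). WT mice in air or at 6 hr lay between -0.37 and 0.21 for Mex3b. For Serpinh1, Notch3-/- air replicate 1 was at -0.33, the lowest of its group. Whether a chromosome segment differs between these mice was not tested.

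**Figure D3:**
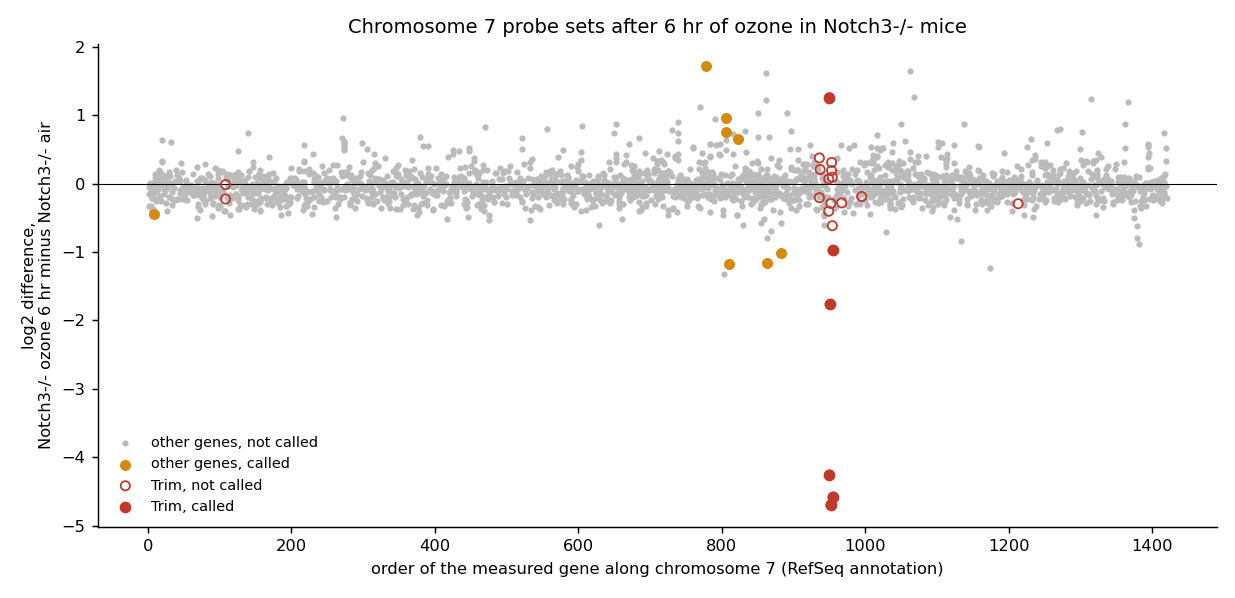
Log2 difference, Notch3-/- ozone 6 hr minus Notch3-/- air (vertical axis), for each chromosome 7 probe set against the order of its gene among the 1420 measured genes of the chromosome (horizontal axis), with Trim probe sets in red and called probe sets filled. The called Trim probe sets share a narrow place in the order, and other called genes lie mostly to its left.

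The promoters of these genes were read for the core of the interferon-stimulated response element, the site bound by interferon-activated factors, searched as a pair of GAAA blocks 2 bases apart on both strands from 250 bases before to 50 bases after each start in RefSeq (build GRCm38.p6). It was held by 3.99% of 27025 genes with a window, by 9 of 47 Trim genes (19.1%), by 7 of 12 Trim genes of chromosome 7 (58.3%) and by 8 of 15 listed interferon-stimulated genes outside the family (53.3%). The chromosome 7 genes with it were Trim5, Trim12a, Trim12c, Trim21, Trim30a, Trim30d and Trim34a. The windows of Trim34a, Trim5, Trim12a, Trim30a and Trim30d are shown because they belong to genes that differed strongly together or, for Trim30a, to the neighbor that did not, with the motif in capitals and each window read 5′ to 3′ on its gene's strand.
Trim34a, chr7:104244207-104244506, plus strand: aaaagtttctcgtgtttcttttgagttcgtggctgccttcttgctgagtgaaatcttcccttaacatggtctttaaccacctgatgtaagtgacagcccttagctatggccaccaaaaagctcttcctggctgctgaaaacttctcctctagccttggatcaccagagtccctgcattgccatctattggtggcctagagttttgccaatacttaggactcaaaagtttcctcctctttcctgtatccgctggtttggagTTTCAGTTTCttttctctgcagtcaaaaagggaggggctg
Trim5, chr7:104288057-104288356, minus strand: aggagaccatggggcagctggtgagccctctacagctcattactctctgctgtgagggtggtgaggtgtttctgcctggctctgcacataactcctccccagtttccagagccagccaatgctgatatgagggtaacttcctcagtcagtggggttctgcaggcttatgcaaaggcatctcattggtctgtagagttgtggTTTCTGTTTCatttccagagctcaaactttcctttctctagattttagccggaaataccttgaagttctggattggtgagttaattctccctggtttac
Trim12a, chr7:104315446-104315745, minus strand: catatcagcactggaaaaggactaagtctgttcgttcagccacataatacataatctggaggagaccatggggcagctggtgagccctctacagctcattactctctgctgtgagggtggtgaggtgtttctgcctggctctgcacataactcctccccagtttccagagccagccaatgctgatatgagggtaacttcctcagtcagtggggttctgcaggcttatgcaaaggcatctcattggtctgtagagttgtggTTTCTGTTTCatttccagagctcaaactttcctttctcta
Trim30a, chr7:104465144-104465443, minus strand: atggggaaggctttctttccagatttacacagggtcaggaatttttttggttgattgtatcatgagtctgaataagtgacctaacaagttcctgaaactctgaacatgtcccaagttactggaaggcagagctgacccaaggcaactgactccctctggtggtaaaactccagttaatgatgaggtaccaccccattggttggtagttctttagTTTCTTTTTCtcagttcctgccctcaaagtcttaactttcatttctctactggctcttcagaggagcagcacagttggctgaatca
Trim30d, chr7:104507800-104508099, minus strand: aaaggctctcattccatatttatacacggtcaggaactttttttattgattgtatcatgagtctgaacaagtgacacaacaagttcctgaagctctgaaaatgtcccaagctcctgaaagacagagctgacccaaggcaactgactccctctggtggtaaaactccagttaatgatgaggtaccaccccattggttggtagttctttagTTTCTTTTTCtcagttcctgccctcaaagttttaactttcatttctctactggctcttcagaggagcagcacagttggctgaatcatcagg
All 5 windows held the motif, including that of Trim30a. The windows of Trim5 and Trim12a shared a run of 241 identical bases, and those of Trim30a and Trim30d 1 of 118. A match is a description of letters and not of a bound site.

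Interferon-stimulated genes outside the Trim family were not called with them. By limma 0.16% of all probe sets were called here, and 12.1% had an unadjusted p below 0.05. At that share, 0 calls are usual for lists as short as those below. Of 22 measured, 0 were called by limma in Notch3-/- mice after 6 hr of ozone (4 at an unadjusted p below 0.05), and their median difference was 0.13, where that over 1 probe set for each gene was -0.04. Their mean level ran from 0.21 to 0.24 in these mice and from -0.06 to 0.29 in Notch3-/- mice in air. Genes of the pathways that Trim30a acts on were also without a call here, with 0 of 10 inflammasome genes and 0 of 8 genes of TAB and TRAF6 signaling called by limma (2 and 1 at an unadjusted p below 0.05).

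Knockout mice otherwise had higher levels of the same chromosome 7 genes than WT mice. In Notch4-/- mice in air, 3 Trim probe sets were higher than in WT mice in air, where 0.482% of all probe sets were called and 0.171% were higher. Trim30d was at 0.37, 0.09 and 0.35 in Notch4-/- mice and at -0.94, -0.65 and -0.94 in WT mice, a difference of 1.11 (SE 0.19, adjusted p = 0.0018). Its second probe set was higher by 0.86 (SE 0.17, adjusted p = 0.011) and Trim12a by 1.06 (SE 0.22, adjusted p = 0.017). The Notch4-/- and WT mice did not overlap in any of the 3. Without Notch4-/- air replicates 1 and 2, which leaves 1 air mouse assumed to vary like the other groups, the difference of Trim30d was 1.20 (adjusted p = 0.041), and Trim12a (1.32, adjusted p = 0.054) and the second Trim30d probe set (0.84, adjusted p = 0.12) were no longer called. Trim7 (1.25, adjusted p = 0.026) and Trim3 (-0.81, adjusted p = 0.03) were called in their place, where 0.449% of all were. The Trim12a call was also lost when Notch4-/- air replicate 1 or 3, or WT air replicate 1 or 3, was dropped (adjusted p up to 0.10), and that of the second Trim30d probe set when Notch4-/- air replicate 1 or WT air replicate 2 was (adjusted p up to 0.13).

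Averaged over air and the 3 ozone times, Notch4-/- mice differed from WT mice in 10 Trim probe sets, 7 higher and 3 lower, where 5.76% of all were called (2.87% higher, 2.89% lower). Trim30d was higher by 1.31 (SE 0.09, adjusted p = 6.2e-11) and 0.75 (SE 0.09, adjusted p = 4.6e-07) in its 2 probe sets. Trim34a was higher by 1.12 (SE 0.12, adjusted p = 1.1e-07), with -0.50 (SE 0.12, adjusted p = 0.01) in its second probe set, and Trim12a was higher by 1.11 (SE 0.11, adjusted p = 4.3e-08). These are about the size of a doubling, with folds of 2.47, 2.17 and 2.15. Trim5 ran from -0.04 through a median of 0.35 to 1.07 in the 12 Notch4-/- mice and from -0.78 through -0.33 to 0.14 in the 12 WT mice, a difference of 0.79 (SE 0.14, adjusted p = 0.00031). Trim30a ran from -0.38 through 0.30 to 0.70 in Notch4-/- mice and from -0.76 through -0.34 to -0.0048 in WT mice, a difference of 0.63 (SE 0.10, adjusted p = 0.00017), and its other probe set differed by 0.33 (SE 0.07, adjusted p = 0.0026). Trim21 and Trim35, a ligase known for acting on IRF7, differed by small amounts, -0.29 (adjusted p = 0.031) and -0.18 (adjusted p = 0.026). Each call was lost on leaving out any of 8 of the 24 mice, with adjusted p up to 0.071 and 0.059. The other Trim21 probe set was not called and went the other way, with means of 0.06 in Notch4-/- mice and -0.09 in WT mice. Without Notch4-/- air replicates 1 and 2, 11 probe sets were called, 8 of them shared, where 6.23% of all were. The calls of Trim21 (adjusted p = 0.13) and Trim35 (adjusted p = 0.065) were then lost, and the 8 kept were those of Trim5, Trim12a, Trim30a, Trim30d and Trim34a.

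In Notch3-/- mice the same comparison turned on the 6 hr mice. With all mice, 7 Trim probe sets were called, each of them higher than in WT mice, where 5.68% of all were called and 3.28% were higher. Trim12a, Trim30d and Trim34a were not among them and differed by -0.30, -0.07 and -0.21. With the 6 hr Notch3-/- and WT groups left out of the average, 10 probe sets were called, 9 higher and 1 lower, where 3.96% of all were, and 5 were called both ways. Trim12a was then higher by 0.92 (SE 0.13, adjusted p = 2.2e-05), Trim30d by 1.18 (SE 0.11, adjusted p = 5.2e-08) and Trim34a by 0.85 (SE 0.12, adjusted p = 4.8e-05), which turns the direction of all 3. Trim5 was higher by 0.56 (adjusted p = 0.048). Leaving out these mice was chosen after seeing the data.

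Trim30a kept its direction either way. It ran from -1.07 through 0.20 to 0.54 in the 12 Notch3-/- mice and from -0.76 through -0.34 to -0.0048 in the 12 WT mice, a difference of 0.38 (SE 0.10, adjusted p = 0.026), and of 0.60 (adjusted p = 0.0013) without the 6 hr groups. Its other probe set differed by 0.34 (SE 0.07, adjusted p = 0.0014), and by 0.33 without them. The first of these calls was lost on leaving out any of 7 of the 24 mice, with adjusted p up to 0.057. Trim16, which takes part in the autophagy of damaged lysosomes, was higher in Notch3-/- mice by 0.57 (SE 0.13, adjusted p = 0.0043) and 0.30 (SE 0.08, adjusted p = 0.021) in its 2 probe sets, and without the 6 hr groups by 0.65 (adjusted p = 0.0067) and 0.31 (adjusted p = 0.066). Trim21 was higher by 0.18 (adjusted p = 0.029) and Trim11, a ubiquitin ligase, by 0.20 (adjusted p = 0.048). These calls were lost on leaving out any of 9 and any of 19 of the 24 mice, with adjusted p up to 0.069 and 0.10. This Trim21 probe set is not the one called lower in Notch4-/- mice, which differed here by -0.07, without a call.

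In air alone, Notch3-/- and WT mice differed in 0 Trim probe sets by limma (8 at an unadjusted p below 0.05), where 0.486% of all were called. Without Notch3-/- air replicate 1 there were 3 calls, where 0.329% of all were. These were Trim30d, higher by 1.03 (SE 0.16, adjusted p = 0.00085), Trim34a, by 1.01 (SE 0.21, adjusted p = 0.022), and Trim12a, by 0.99 (SE 0.19, adjusted p = 0.012). The mouse was left out for its values in these same probe sets, so the calls follow in part from that choice. Set directly against Notch4-/- mice over all exposures, Notch3-/- mice were lower in 6 Trim probe sets, where 1.09% of all were called and 0.449% were lower. The differences were -1.40 for Trim12a, -1.38 and -0.37 for the Trim30d probe sets, -1.33 for Trim34a and -0.67 for Trim5. With the 6 hr mice left out, 0 Trim probe sets were called by limma (8 at an unadjusted p below 0.05), where 0.855% of all were. The second Trim30d call (adjusted p = 0.025) was lost on leaving out any of 7 of the 24 mice, with adjusted p up to 0.064. The last call was Trim59, at -0.42 (SE 0.10, adjusted p = 0.043), which was lost on leaving out any of 18 of the 24 mice, with adjusted p up to 0.10.

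**Figure D4:**
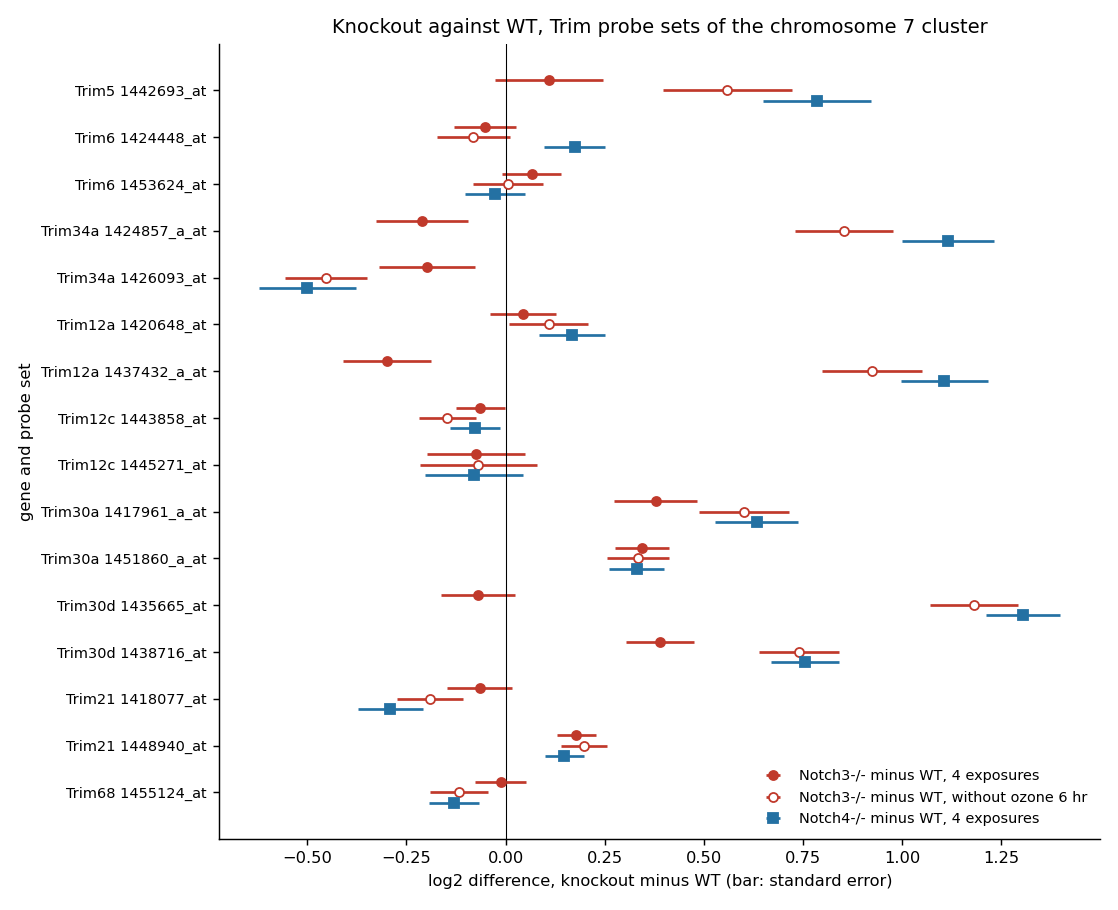
Log2 difference, knockout minus WT, with its standard error (horizontal axis) for 16 probe sets of the chromosome 7 cluster (down the page), for Notch3-/- over 4 exposures (filled circles), Notch3-/- without the 6 hr groups (open circles) and Notch4-/- over 4 exposures (squares). For 1 probe set each of Trim12a, Trim30d and Trim34a, open circles lie at 0.92, 1.18 and 0.85, near the Notch4-/- values of 1.11, 1.31 and 1.12. The filled circles of these probe sets lie below 0. For the other probe set of each gene, open circles lie at 0.11, 0.74 and -0.45 and filled circles at 0.04, 0.39 and -0.20.

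Part of the interferon-stimulated genes outside the family were also called against WT. Of 22 measured, 15 were higher and 1 lower in Notch3-/- mice than in WT mice over all exposures, where 3.28% of all probe sets were higher, and the median difference was 0.44. In Notch4-/- mice 9 were higher and 1 lower, where 2.87% of all were higher and 2.89% lower, and the median was 0.22. Oas1a, which makes the messenger that activates RNase L, was higher by 1.01 in Notch3-/- mice and by 0.84 in Notch4-/- mice, and Rtp4, an inhibitor of flavivirus replication, by 0.75 and 0.60. The 1 lower gene was Xaf1, a regulator of apoptosis, at -4.44 and -3.21. Of 10 inflammasome genes, 3 were higher and 1 lower in Notch3-/- mice, and 3 higher and 2 lower in Notch4-/- mice. Casp1, the protease of the inflammasome, was higher by 0.51 and 0.37, Il1b, its main product, by 0.79 and 0.50, and Il18, another product, differed by -0.40 and -0.47. Of 8 TAB and TRAF6 genes, 0 were called by limma in either comparison (0 at an unadjusted p below 0.05). Neutrophil markers, 5 of 5 measured, were higher in both lines, with medians of 1.01 and 0.58, and their part in the Trim differences was not tested.

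Ozone moved a small number of other Trim genes. With the 3 genotypes averaged, 10 Trim probe sets were called at 6 hr (2.9% of all probe sets), 9 at 24 hr (5.29%) and 9 at 48 hr (10.7%), in all 25 different ones (15.5%). At 6 hr 3 were higher (0.822% of all) and 7 lower (2.08%), at 24 hr 5 higher (3.19%) and 4 lower (2.1%), and at 48 hr 6 higher (6.72%) and 3 lower (3.96%). With the Notch3-/- 6 hr mice left out, 0 of the 111 were called at 6 hr by limma (17 at an unadjusted p below 0.05), where 0.475% of all were. The differences of Trim12a, Trim30d and Trim34a were then 0.02, 0.22 and 0.05, against -1.55, -1.38 and -1.39 with all mice, so that their direction turned. At 6 hr, besides the chromosome 7 genes, Trim25, which ubiquitinates the viral RNA sensor RIG-I in human cells, was higher by 0.25 (SE 0.06, adjusted p = 0.018) and 0.20 (SE 0.05, adjusted p = 0.045) in 2 probe sets, and the second call was lost on leaving out any of 15 of the 18 mice, with adjusted p up to 0.085. Without the Notch3-/- 6 hr mice these were 0.29 (adjusted p = 0.058) and 0.22 (adjusted p = 0.11). Trim46, which organizes microtubules in axons, Trim60, Trim61 and Trim62, a regulator of epithelial polarity, differed by -0.33, -0.32, -0.29 and -0.35, and the Trim60 call was lost on leaving out any of 5 mice, with adjusted p up to 0.064. Without the Notch3-/- 6 hr mice these 4 differed by -0.22, -0.36, -0.26 and -0.33, with adjusted p between 0.062 and 0.22. Without Notch4-/- air replicates 1 and 2, the calls of Trim60, Trim61 and the second Trim25 probe set were lost, with adjusted p between 0.052 and 0.07. The called Trim62 probe set ran from -0.36 through -0.21 to -0.08 in the 9 ozone mice. It ran from -0.06 through 0.14 to 0.28 in the 9 air mice, without overlap. Its other probe sets differed by -0.18 and, the other way, by 0.31, with no call. Without the Notch3-/- 6 hr mice these were -0.14 and 0.50. Without Notch4-/- air replicates 1 and 2 the probe set that rose differed by 0.61.

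Trim16 had the strongest rise at 24 hr. It was at 0.51, 0.35 and 0.28 in Notch3-/- mice, at 0.10, 0.64 and 0.76 in Notch4-/- mice and at 0.14, 0.14 and 0.22 in WT mice after 24 hr of ozone. In air it was at -0.07, -0.28 and 0.09 in Notch3-/- mice, at -0.32, 0.18 and -0.22 in Notch4-/- mice and at -0.58, -0.53 and -0.23 in WT mice. All Notch3-/- and all WT ozone mice were above the air mice of their genotype, and only the Notch4-/- groups overlapped. The averaged difference was 0.57 (SE 0.09, adjusted p = 0.0003) at 24 hr and 0.46 (SE 0.09, adjusted p = 0.0011) at 48 hr, and neither call was lost under any alternative. A second Trim16 probe set was higher at 24 hr by 0.57 (SE 0.15, adjusted p = 0.019), with adjusted p up to 0.058 without Notch3-/- ozone 24 hr replicate 1 or Notch4-/- air replicate 3. At 48 hr this probe set was at -1.49, -0.42 and -1.24 in Notch4-/- mice after ozone and at 0.01, 0.31 and -0.76 in Notch4-/- mice in air, a difference of -0.91 (SE 0.25, adjusted p = 0.062).

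Trim29, which lacks the RING finger and restrains innate signaling in mouse airway cells, was higher at 48 hr. It ran from 0.00 through 0.32 to 0.38 in the 9 mice after 48 hr of ozone and from -0.41 through -0.22 to 0.12 in the 9 air mice, a difference of 0.42 (SE 0.08, adjusted p = 0.00044) that kept its call under every alternative. Trim40, an inhibitor of NF-kB known from gut epithelium, was higher by 0.29 (SE 0.08, adjusted p = 0.041) at 24 hr and by 0.37 (SE 0.08, adjusted p = 0.0031) at 48 hr. Its 24 hr call was lost on leaving out any of 11 of the 18 mice, with adjusted p up to 0.11, and its 48 hr call was kept. Trim44, another member without a RING finger, was higher by 0.46 (SE 0.10, adjusted p = 0.0092) at 24 hr in one probe set and by 0.33 (SE 0.08, adjusted p = 0.0032) at 48 hr in another. Trim8, which promotes NF-kB signaling through TAK1, was higher by 0.30 (SE 0.08, adjusted p = 0.025) at 24 hr, with adjusted p up to 0.074 without Notch3-/- ozone 24 hr replicate 1, Notch4-/- air replicate 3 or Notch4-/- ozone 24 hr replicate 3.

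**Figure D5:**
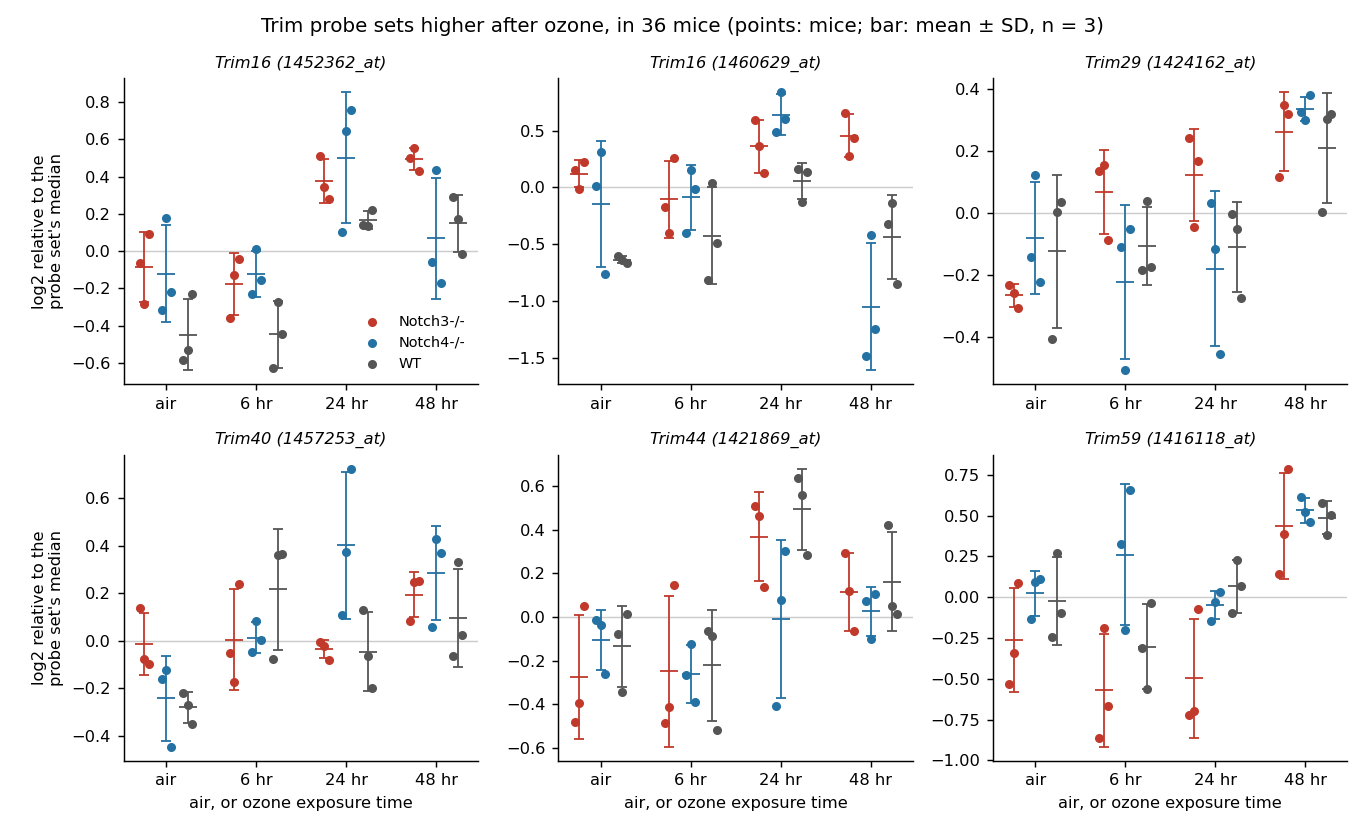
Log2 value relative to the probe set's median (vertical axis, scaled for each panel) in air and after 6, 24 and 48 hr of ozone (horizontal axis) for Trim16 (2 probe sets), Trim29, Trim40, Trim44 and Trim59, 1 point per mouse, with mean and SD of 3 mice. In the first Trim16 panel every mouse at 24 hr lies at 0.10 or above, and in the second the Notch4-/- mice at 48 hr lie between -1.49 and -0.42.

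Trim59, known from proliferating and tumor cells, was also higher at 48 hr. It lay between 0.14 and 0.79 in the 9 mice after 48 hr of ozone, with a median of 0.50, and between -0.53 and 0.27 in the 9 air mice, with a median of -0.10. The difference was 0.57 (SE 0.12, adjusted p = 0.0015), and that of its second probe set 0.32 (SE 0.10, adjusted p = 0.033). The second call was lost on leaving out any of 10 of the 18 mice, with adjusted p up to 0.095, and without both Notch4-/- air replicates 1 and 2 (adjusted p = 0.26). Markers of dividing cells rose at the same time, 4 of 5 measured, with a median of 1.88. Their mean level lay between 1.07 and 1.61 in the 48 hr mice and between -1.21 and 1.01 in the air mice, and the part of dividing cells in the Trim59 difference was not tested.

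Other members fell. At 24 hr Trim12c differed by -0.32 (SE 0.07, adjusted p = 0.0082), and this call held whichever mouse was left out. Trim23, a ligase that acts on the NF-kB regulator NEMO, differed by -0.40 (SE 0.11, adjusted p = 0.029), Trim68 by -0.26 (SE 0.07, adjusted p = 0.038) and Trim21 by -0.20 (SE 0.06, adjusted p = 0.04). Leaving out any of 9, 12 and 9 of the 18 mice ended these 3 calls, with adjusted p up to 0.084, 0.10 and 0.11. At 48 hr Trim35 differed by -0.20 (SE 0.06, adjusted p = 0.019) and Trim2, a ligase of neurons, by -0.24 (SE 0.08, adjusted p = 0.048). Of the Trim25 probe sets, 1 was called, at -0.17 (SE 0.05, adjusted p = 0.046). The Trim2 and Trim25 calls were lost on leaving out any of 14 and any of 11 mice, with adjusted p up to 0.12 and 0.10. They were also lost without both Notch4-/- air replicates 1 and 2, at -0.13 and -0.15. Another Trim25 probe set went the other way, by 0.16 (adjusted p = 0.31), and by 0.30 without those air mice. The remaining Trim25 probe set had medians of -0.13 at 48 hr and -0.06 in air.

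Within single genotypes few members passed. In Notch3-/- mice, 2 were called at 24 hr, both lower (2.72% of all probe sets, 1.34% lower), and 3 at 48 hr, all higher (2.46%, 1.93% higher), which with 6 hr makes 10 different ones (4.44%). Without Notch3-/- air replicate 1 these counts were 1 at 24 hr (0.848% of all) and 0 by limma at 48 hr (1.24%, with 9 members at an unadjusted p below 0.05). In Notch4-/- mice the counts were 0 at 6 hr (0.00666% of all), 3 at 24 hr, all higher (1.39%, 1.15% higher), and 0 at 48 hr (1.75%). Without Notch4-/- air replicates 1 and 2 they were 2 at 6 hr (0.382% of all), 14 at 24 hr (8.1%), among them the same 3, and 1 at 48 hr (1.96%). In WT mice the counts were 0 at 6 hr (0% of all), 0 at 24 hr (0.104%) and 1 at 48 hr, higher (1.89%, 1.39% higher). Over the 3 times 2.83% of all probe sets were called in Notch4-/- mice and 1.92% in WT mice. By limma, 12 members at 6 hr and 12 at 48 hr in Notch4-/- mice, and 14 at 6 hr and 17 at 24 hr in WT mice, had an unadjusted p below 0.05 without passing. Trim16 was the call shared in name by the 3 genotypes, at 0.58 (SE 0.16, adjusted p = 0.048) in Notch3-/- mice at 48 hr, 0.62 (SE 0.16, adjusted p = 0.046) in Notch4-/- mice at 24 hr and 0.60 (SE 0.16, adjusted p = 0.047) in WT mice at 48 hr. Leaving out any of 5, 4 and 5 of the 6 mice ended these calls, with adjusted p up to 0.25, 0.33 and 0.21. The response differences at 24 and 48 hr, and those of Notch4-/- mice at 6 hr, called 0 members by limma, with 3 to 13 at an unadjusted p below 0.05. Of all probe sets, 0.00444% were called at 24 hr and 0.00222% at 48 hr for Notch3-/- mice, 0% at 6 and 24 hr and 0.00222% at 48 hr for Notch4-/- mice, and 0.0155% over all 6 response differences.

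The other calls by genotype rested on small groups. In Notch3-/- mice Trim29 was higher at 48 hr by 0.53 (SE 0.14, adjusted p = 0.034) and the second Trim30d probe set by 0.66 (SE 0.17, adjusted p = 0.032), and leaving out any of 5 of the 6 mice ended each, with adjusted p up to 0.16 and 0.17. In Notch4-/- mice at 24 hr Trim40 was higher by 0.64 (SE 0.14, adjusted p = 0.024) and Trim3, a ligase of neurons, by 0.63 (SE 0.14, adjusted p = 0.027), and leaving out any of 4 mice ended each, with adjusted p up to 0.27 and 0.36. In Notch3-/- mice at 24 hr Trim46 was at -0.16, -0.26 and -0.09 after ozone and at 0.38, 0.38 and 0.46 in air, without overlap, a difference of -0.58 (SE 0.12, adjusted p = 0.012). Its adjusted p was 0.051 without Notch3-/- ozone 24 hr replicate 2.

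Members of striated muscle varied between mice of 1 group. Trim63, a ligase of muscle atrophy, spanned 4.17 log2 units and Trim54, a sarcomere protein, 2.19, and 0 of their differences in the 23 comparisons were called by limma (0 at an unadjusted p below 0.05). Trim63 was at 2.12, -0.72 and -1.24 in WT mice after 6 hr of ozone alone. In these mice the mean of 8 cardiac muscle markers lay between -0.78 and 1.52. That of 8 skeletal muscle markers lay between -0.21 and 0.38. Trim72, which repairs torn membranes in muscle and, in mice, in lung epithelium, was at -0.01, -0.21 and -0.28 in Notch3-/- mice after 24 hr of ozone and at 0.30, 0.18 and 0.27 in Notch3-/- mice in air. The difference was -0.42 (SE 0.10, adjusted p = 0.029), and leaving out any of 4 of the 6 mice ended the call, with adjusted p up to 0.15. In the same Notch3-/- groups the mean of the 8 skeletal muscle markers lay between -0.16 and 0.09 in the ozone mice and between -0.05 and 3.15 in the air mice. By limma 0 of these 8 were called (5 at an unadjusted p below 0.05). The mean of the cardiac muscle markers lay between -0.66 and 0.84 in the ozone mice and between -0.49 and 1.06 in the air mice. The part of either muscle in the Trim values was not tested.

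The remaining groups of the family were largely without calls, as were most probe sets, of which 22.4% were called in any comparison. The lack of calls therefore cannot be read as particular to these small groups. Of 4 transcription cofactors of the TIF1 group, 0 were called by limma in any comparison (20 of 207 differences at an unadjusted p below 0.05), and the lowest p was that of Trim28, which silences retroelements, with 0.52 (SE 0.14, adjusted p = 0.055) in Notch4-/- mice at 24 hr. Without Notch4-/- air replicates 1 and 2 it was called there, at 0.87 (adjusted p = 0.0055), as was Trim32, at 1.14 (adjusted p = 0.022). Of 4 members with NHL repeats, Trim2 and Trim3 gave the calls described, and Trim32, mutated in a human muscular dystrophy, and Trim71, a stem cell factor, gave 0 by limma (2 of 69 differences at an unadjusted p below 0.05). Trim10, known from erythroid cells, was higher in Notch4-/- than in WT mice over all exposures by 0.63 (SE 0.19, adjusted p = 0.055), or by 0.79 (adjusted p = 0.026) without Notch4-/- air replicates 1 and 2. Of 6 members in the MHC region of chromosome 17, Trim40 alone was called. In all, 33 of the 58 genes had no call in any comparison. By probe set, 29.7% of the family were called in any comparison, against 22.4% of all.

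Some genes of the pathways that Trim proteins act on were called at 48 hr with genotypes averaged, where 6.72% of all probe sets were higher and 3.96% lower. Of these genes, 4 of 8 TAB and TRAF6 signaling genes were higher, including Myd88, the Toll-like receptor adaptor, by 0.52 and Traf6, its downstream ligase, by 0.29. Of 10 inflammasome genes 3 were higher and 1 lower, with Il1b higher by 0.66 and Txnip, an inflammasome activator, at -0.42. Of 22 interferon-stimulated genes outside the family 1 was higher and 6 lower, with Rtp4 at -0.36. Of 8 genes of cytosolic nucleic acid sensing 1 was higher, Sting1, the DNA-sensing adaptor, by 0.70.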

How the data were processed

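RNA of 36 left lungs was hybridized to Affymetrix mouse expression arrays. The authors normalized the arrays by RMA (background correction, quantile normalization, log2) in GeneSpring GX, per the methods and the labels. The deposited file holds log2 values of 45101 probe sets. In each of them the median over all arrays was found to be 0, so signal over background cannot be read. Affymetrix controls, 64 probe sets, were not tested, unlike in the planned design, and 0 columns of values were without a sample.

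limma 3.58.1 (R 4.3.3) fitted 1 mean for each of 12 groups to the other 45037 probe sets, with 24 residual degrees of freedom, and Benjamini-Hochberg adjustment was made over all of these within each of 23 comparisons. A typical SE (the median) was 0.139 log2 units where ozone was set against air, 0.0695 where lines were compared over exposures and 0.196 where responses were compared. Precision is limited by the number of arrays. The p-values measure the spread between the mice of a group. Members and gene lists were chosen with earlier results of these data known. Named genes were Trim genes with a call, those in the study's text, all members of the chromosome 7 and muscle lists, up to 4 members of each other list by lowest p, and listed genes outside the family that passed. Each listed gene was read by 1 probe set, chosen by how specific its suffix says it is. Gene order and promoter windows are from RefSeq (GRCm38.p6), and all 58 genes matched. The steps were tested on simulated data. Alternatives were quantile normalization or median centring of the arrays, array weights, the two-way ANOVA with Tukey's test of the methods, fewer arrays, only probe sets with 1 symbol, joint adjustment, a replicate block and leaving out mice.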

Additional observations from a re-analysis of the deposited data

Results flagged for a closer look

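The ozone response of Notch3-/- mice at 6 hr differed from that of WT mice, by a test of the difference itself, for Trim34a (-4.03), Trim30d (-4.53) and Trim12a (-4.58). The other results come from probe sets that list a Trim gene among several symbols and belong to no comparison above. The probe set listing Trim34a and Trim34b differed by -1.59 between Notch3-/- ozone 6 hr and Notch3-/- air mice (adjusted p = 0.00013), by 0.72 between Notch4-/- and WT mice over exposures and by -0.55 between Notch3-/- and Notch4-/- mice. That listing Trim30a and Trim30d was higher by 0.66 and that listing Trim30b and Gm38525 by 0.49 in Notch4-/- than in WT mice. That listing Trim17 and H2aw differed by -1.06 between Notch4-/- mice after 48 hr of ozone and Notch4-/- mice in air, and was higher by 0.47 in Notch3-/- than in WT mice over exposures.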

How the results depend on the processing

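Of 72 called differences of members, 40 kept their call whichever 1 mouse was left out, and 22 kept it under every setting run on them. Without the Notch3-/- ozone 6 hr mice, 4 of the 41 differences refitted turned their direction. These were the averaged 6 hr differences of Trim12a (0.02 against -1.55), Trim30d (0.22 against -1.38) and Trim34a (0.05 against -1.39) and the second Trim30d probe set in Notch3-/- against Notch4-/- (0.08 against -0.37). Under the other settings 0 turned. At any time of ozone, 1 Trim probe set was called in WT, 10 in Notch3-/-, 3 in Notch4-/- and 25 with genotypes averaged. Array weights gave 12, 23, 15 and 38, with 2 for Notch3-/- and 15 for Notch4-/- against WT in air. Tukey's test gave 0, 3, 0 and 8, with 0 for Notch4-/- against WT in air and 3 for Notch3-/- against WT over exposures, and was not run for response differences. A further quantile normalization gave 0 in WT and 6 in Notch4-/- for ozone, and 5 for Notch4-/- against WT in air. Fitting only the genotypes compared gave 0 for ozone in Notch4-/-. Joint adjustment gave 5 for ozone in Notch4-/-, 5 for Notch4-/- against WT in air, 3 for Notch3-/- against WT over exposures and 5 response differences. The share of all probe sets called was not counted under array weights, Tukey's test, quantile normalization, fewer genotypes or joint adjustment. Nor was it with a replicate block or each mouse left out in turn, so these counts cannot be read as particular to the family. The next 3 settings were chosen after seeing the data. For their ozone counts, taken over all times, the share of all probe sets was not counted either. Leaving out the Notch3-/- ozone 6 hr mice gave 15 averaged ozone calls and 0 for Notch3-/- against Notch4-/-. Leaving out Notch3-/- air replicate 1 gave 6 ozone calls in Notch3-/- and 3 against WT in air. Leaving out Notch4-/- air replicates 1 and 2 gave 14 ozone calls in Notch4-/-. The cause was not tested.

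With 1 mouse left out, calls of ozone ranged from 0 to 1 in WT, 6 to 10 in Notch3-/-, 0 to 7 in Notch4-/- and 19 to 26 averaged. Against WT in air they ranged from 0 to 3 for Notch3-/- and 1 to 4 for Notch4-/-. Over exposures they ranged from 4 to 7 for Notch3-/- against WT, 8 to 12 for Notch4-/- against WT and 4 to 7 for Notch3-/- against Notch4-/-, and response differences from 3 to 4. The count of 0 in Notch4-/- came without ozone 24 hr replicate 2 or 3, that of 1 without air replicate 1 or 3 and that of 7 without air replicate 2, the 0 in WT without air replicate 1 or 2 or any ozone 48 hr mouse, the 6 in Notch3-/- without air replicate 1 or 2, the 3 in air without Notch3-/- air replicate 1, the 1 in air without Notch4-/- air replicate 1, and the 4 for Notch3-/- against WT without WT ozone 24 hr replicate 3.

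The labels do not say that replicate numbers pair mice, and not every pair correlated over 0.1. Of 198 pairs of arrays with 1 number, 89 had deviations correlating over 0.1 (range -0.505 to 0.617), and 22 of 36 arrays correlated best with their own number, a hint from the data and not the design. With the replicate number as a block, 5 calls in place of 3 were made for Notch4-/- against WT in air, and no other count moved by over 1.5 times. The block ended the calls of the second Trim25 probe set at 6 hr (adjusted p = 0.05) and 48 hr (adjusted p = 0.055) and of Trim11 in Notch3-/- against WT (adjusted p = 0.054).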
